A study of Saccharomyces cerevisiae with 4 samples.

Results

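The genes described here are 9 of the 5449 Saccharomyces cerevisiae genes measured on 4 Affymetrix arrays, chosen by name for their part in retrograde signalling or in the breakdown of propionate. They are the regulators RTG1, RTG2, RTG3 and MKS1, the target genes CIT2 and DLD3, and the methylcitrate cycle genes CIT3, PDH1 and ICL2. Each had a single probe set, so the rule of taking the brightest probe set of a gene chose nothing among them, and none of the 9 probe sets carries the mark that it can bind several transcripts. The genes were put forward with earlier results of the same comparison known, so their differences are a description and no p-value is given for them.

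All cultures were of BY4741, a haploid MATa laboratory strain derived from S288C in which HIS3, LEU2, MET15 and URA3 are deleted, grown in YPD, a rich glucose medium. The honokiol group (2 arrays) had been exposed for 2 h to 12 µg/mL of honokiol, a biphenol that magnolia trees make. The ethanol group (2 arrays) had received the solvent alone, so 0 µg/mL of honokiol, for the same 2 h. The labels call the replicates biological and give a culture age of 8 h for every sample, and nothing in them says more about how the cultures were kept apart. P-values rest on the spread between these arrays, pooled for each gene in part with that of the other tested genes.

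The retrograde pathway carries information from mitochondria to the nucleus. Rtg1 and Rtg3 form a heterodimeric transcription factor. Rtg2 senses the mitochondrial state and holds back Mks1, which otherwise keeps Rtg3 phosphorylated and in the cytoplasm. When mitochondrial function is impaired, Rtg1 and Rtg3 enter the nucleus and switch on genes that supply citrate and 2-oxoglutarate, with CIT2 as the standard reporter. The 2-methylcitrate cycle, in the mitochondrion, turns propionyl-CoA into pyruvate and succinate: Cit3 makes 2-methylcitrate, Pdh1 dehydrates it and Icl2 splits 2-methylisocitrate. PDH1 is named for propionate and is not a subunit of pyruvate dehydrogenase.

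Values are log2 of the deposited intensity, and each difference is honokiol minus ethanol. The target genes and PDH1 were higher with honokiol, CIT3 was higher by less, ICL2 was level, and the regulators spread on both sides of 0. In the limma fit over all genes, 4 of the 9 genes passed the threshold as higher (CIT2, DLD3, CIT3 and PDH1) and 2 as lower (RTG2 and MKS1), while 3 did not pass (RTG1, RTG3 and ICL2). Over all tested genes 48.9% passed in either direction, 23.9% as higher and 25.0% as lower. Adding a minimum of 2-fold to the threshold left CIT2, DLD3 and PDH1, all higher, a class that holds 3.78% of all genes. The median difference was 0.40 over the 9 genes and 0.01 over all tested genes, whose 5th and 95th percentiles lay at -0.62 and 0.89. The 0.40 is the value of RTG1 (SE 0.27), which was 0.79 without ethanol 1 and 0.02 without ethanol 2. This median is therefore not a stable measure of the set.

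**Figure D1:**
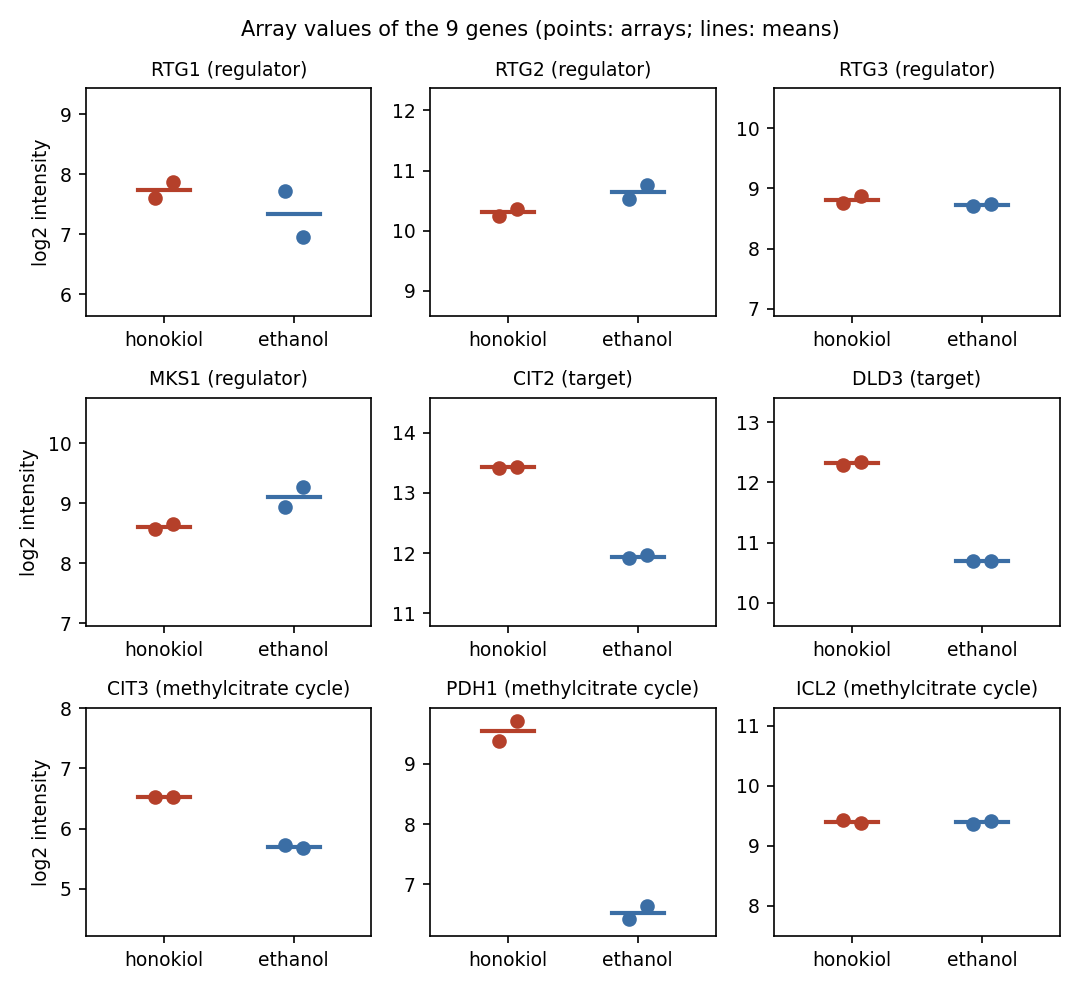
Log2 intensity (vertical axis, the same span in each panel) of the 9 genes on each array, honokiol at the left and ethanol at the right; points are arrays and lines are group means. CIT2, DLD3, CIT3, PDH1 and, by only 0.01, RTG3 have both honokiol arrays above both ethanol arrays. Groups did not overlap, in either direction, in 80.2% of all tested genes. The 2 ethanol arrays of RTG1 lie 0.77 apart.

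CIT2 encodes the citrate synthase of peroxisomes, which feeds the glyoxylate cycle. Its log2 intensity was 13.42 and 13.43 on the honokiol arrays, against 11.91 and 11.97 on the ethanol arrays. The groups lay 1.45 apart at their nearest arrays, while replicates differed by at most 0.06. The difference was 1.48 ± 0.06 (SE, n = 2 arrays in each group), a 2.80-fold higher intensity with honokiol.

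DLD3 encodes a cytosolic enzyme that oxidises D-2-hydroxyglutarate and passes the electrons to pyruvate, making D-lactate. It had 12.29 and 12.35 on the honokiol arrays, against 10.69 and 10.70 on the ethanol arrays. Both honokiol arrays again stood clear of both ethanol arrays, by 1.59. The difference was 1.62 ± 0.06 (SE), or 3.08-fold. Among the 5449 genes, ordered from the highest difference down, DLD3 ranked 49 and CIT2 ranked 64.

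PDH1, the 2-methylcitrate dehydratase gene, had the widest difference of the 9 genes. Its log2 intensity was 9.38 and 9.72 with honokiol and 6.42 and 6.63 with ethanol, and the nearest arrays of the groups were 2.74 apart. The difference of 3.02 ± 0.14 (SE) is 8.12-fold and ranked 5 among all tested genes. In the ethanol group PDH1 was dim, 2.15 above the background level of 4.37. The 5th percentile of tested genes on the ethanol arrays was 6.49 and 6.17. Its honokiol arrays differed from each other by 0.34, the largest honokiol gap among the 9 genes.

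CIT3, which encodes a mitochondrial citrate and 2-methylcitrate synthase, had 6.52 and 6.53 on the honokiol arrays, against 5.72 and 5.67 on the ethanol arrays. The groups did not overlap and lay 0.80 apart. The difference was 0.83 ± 0.06 (SE), or 1.78-fold. In the ethanol group CIT3 lay 1.32 above the background level of 4.37. RMA can compress differences close to background, and whether it did so for CIT3 was not tested. Dim genes as a class were higher with honokiol: the 172 tested genes whose mean lay within 0.5 of that of CIT3 had a median difference of 0.32. Their median SE was 0.15, and the SE of CIT3 itself was 0.18 in the fit with an intensity trend and a robust prior. When the tested genes were quantile normalized once more, the difference of CIT3 was 0.45.

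ICL2, which encodes the 2-methylisocitrate lyase of the mitochondrial matrix, had 9.43 and 9.38 with honokiol and 9.37 and 9.42 with ethanol. The groups overlapped. The difference was 0.01 ± 0.06 (SE), with a 95% interval from -0.14 to 0.17. The cycle genes CIT3, PDH1 and ICL2, in the order of their reactions, had differences of 0.83, 3.02 and 0.01.

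**Figure D2:**
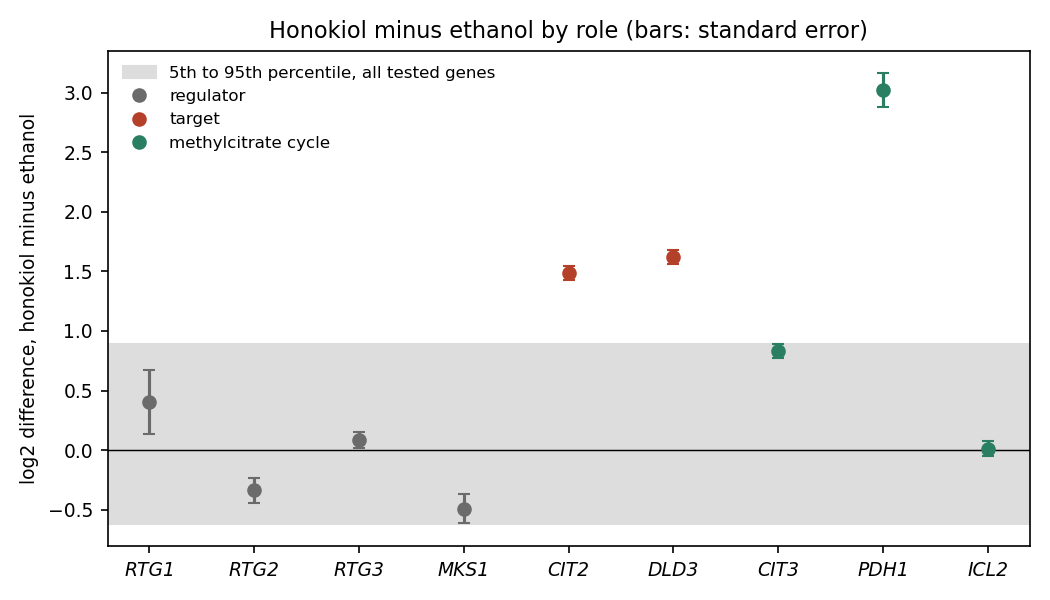
Difference in log2 intensity, honokiol minus ethanol (vertical axis), for the 9 genes coloured by role, with bars for the standard error; the grey band spans the 5th to the 95th percentile of all tested genes, -0.62 to 0.89. CIT2, DLD3 and PDH1 lie above the band, and the other 6 genes lie inside it.

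RTG1 encodes a helix-loop-helix protein and is the DNA-binding partner of Rtg3. Its log2 intensity was 7.60 and 7.87 on the honokiol arrays, against 7.72 and 6.95 on the ethanol arrays. The first ethanol array fell between the honokiol arrays and the second lay well below all others. The difference was 0.40 ± 0.27 (SE), with a 95% interval from -0.30 to 1.11. It was 0.79 without ethanol 1 and 0.02 without ethanol 2, so the ethanol arrays decide the value, and RTG1 passed the threshold only in the fit without ethanol 1.

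RTG3 encodes the subunit that carries the activating function of the pair. It had 8.76 and 8.87 with honokiol and 8.71 and 8.75 with ethanol. The groups did not overlap but their nearest arrays were only 0.01 apart, less than either replicate gap. The difference was 0.08 ± 0.07 (SE), with a 95% interval from -0.09 to 0.26. Non-overlapping groups were common on these arrays, in 80.2% of all tested genes and in 7 of the 9 genes (5 higher and 2 lower).

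RTG2 encodes the upstream activator, a protein with an ATP-binding domain. It had 10.25 and 10.36 on the honokiol arrays, against 10.52 and 10.76 on the ethanol arrays. Both honokiol arrays were lower, by 0.16 at the nearest arrays, which is less than the gap of 0.24 between the ethanol arrays. The difference was -0.34 ± 0.10 (SE). It was -0.46 without ethanol 1 and -0.22 without ethanol 2, and in the fit without ethanol 2 RTG2 did not pass the threshold.

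MKS1 encodes the negative regulator of the pathway and was first known also as LYS80 from its part in lysine synthesis. It had 8.56 and 8.65 with honokiol and 8.93 and 9.26 with ethanol. Both honokiol arrays were lower, by 0.28 at the nearest arrays, while the ethanol arrays differed by 0.33. The difference was -0.49 ± 0.12 (SE), and it was -0.66 without ethanol 1 and -0.33 without ethanol 2. RTG2 and MKS1, a pair of opposing regulators, were both lower with honokiol, and neither reached a 2-fold difference.

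The second ethanol array also stood apart in the control transcripts that track RNA quality. The mean log2 ratio of 5′ to 3′ probe sets over 7 yeast control transcripts was -1.18 and -1.22 on the honokiol arrays, against -1.31 and -1.67 on the ethanol arrays. With this ratio as a covariate the difference was -0.17 for RTG1, -0.14 for RTG2 and -0.23 for MKS1, and neither RTG2 nor MKS1 then passed. Both honokiol arrays had a higher ratio than both ethanol arrays, and within groups the ratio varied mainly between the ethanol arrays. The covariate is thus tied to the group and to the second ethanol array, and is not a separate adjustment for RNA quality. For CIT2, DLD3, CIT3 and PDH1 the values with the covariate were 1.53, 1.64, 0.79 and 3.22. RTG2 and MKS1 also missed the threshold without honokiol 1, without honokiol 2 and when all probe sets except controls were tested as features.

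**Figure D3:**
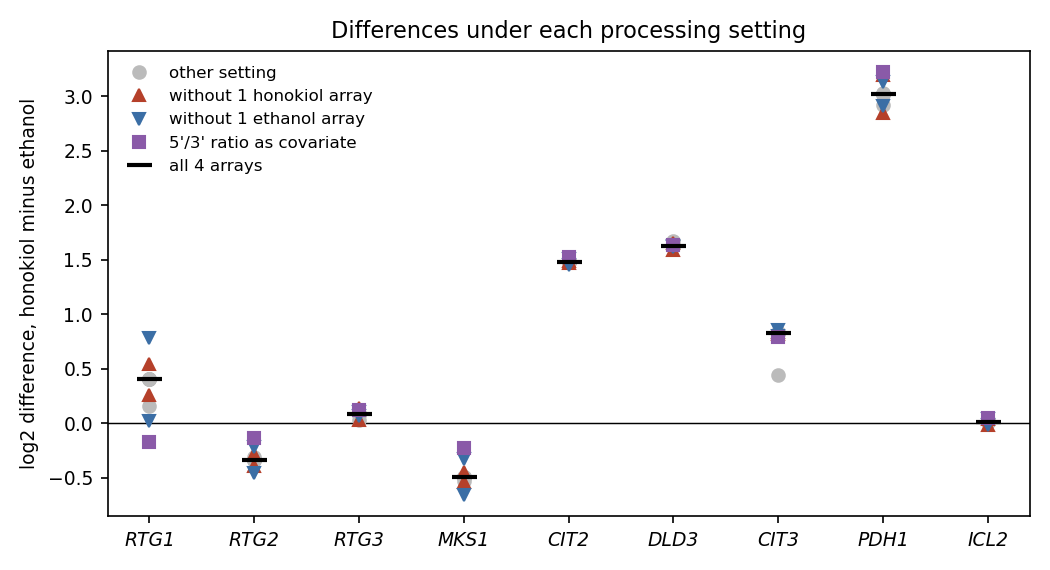
Difference in log2 intensity, honokiol minus ethanol (vertical axis), for each gene with all 4 arrays (black bar) and under the 12 alternative settings, marked by kind. CIT2 stays between 1.46 and 1.53 and DLD3 between 1.59 and 1.68, while RTG1 runs from -0.17 to 0.79.

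CIT3 and PDH1 are next to each other on chromosome XVI, transcribed the same way by their systematic names YPR001W and YPR002W, and ICL2 (YPR006C) is a few genes further along on the other strand. Between PDH1 and ICL2 lie 3 tested genes. YPR003C, a predicted sulfate permease gene, differed by 0.06 ± 0.06 (adjusted p = 0.422), and AIM45, a relative of electron transfer flavoproteins, by -0.03 ± 0.06 (adjusted p = 0.711). HAL1, a gene of salt tolerance, rose by 0.53 ± 0.07 (adjusted p = 0.00609), and did not pass without honokiol 1 (adjusted p = 0.0604). On the far side of CIT3, the histone acetyltransferase gene HAT1 rose by 0.42 ± 0.06 (adjusted p = 0.00773, and 0.077 and 0.0739 without honokiol 1 and without honokiol 2). PDH1 stood at 3.02, and the other tested genes from HAT1 to ICL2 apart from CIT3 lay between -0.03 and 0.53.

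**Figure D4:**
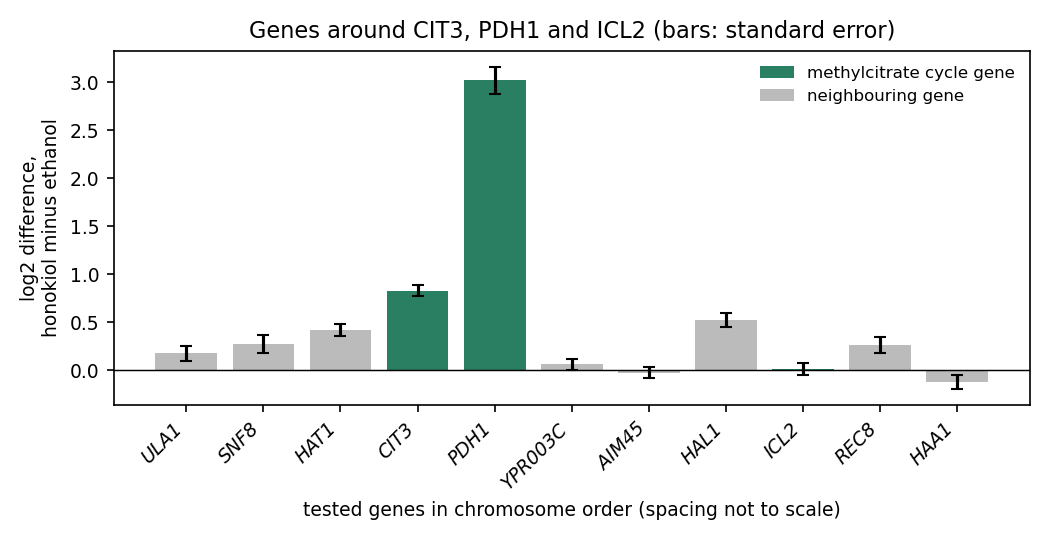
Difference in log2 intensity, honokiol minus ethanol (vertical axis), for the tested genes around the methylcitrate cycle genes in their order on chromosome XVI (horizontal axis, not to scale), with bars for the standard error. PDH1 stands at 3.02 and its neighbour CIT3 at 0.83, while ICL2 is at 0.01.

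The paralogs of the target and cycle enzymes had differences of other sizes and signs. Among the citrate synthase genes, CIT1, which encodes the mitochondrial enzyme of the TCA cycle, had 12.96 and 13.00 with honokiol and 13.00 and 13.05 with ethanol, a difference of -0.04 ± 0.06 (SE; adjusted p = 0.576), beside 1.48 for CIT2 and 0.83 for CIT3. In the family of DLD3, the mitochondrial D-lactate dehydrogenase gene DLD1 differed by 0.01 ± 0.07 (adjusted p = 0.950). DLD2, whose mitochondrial product also oxidises D-2-hydroxyglutarate, fell by 0.45 (SE 0.07, adjusted p = 0.00773; 0.0768 and 0.0696 without honokiol 1 and without honokiol 2), beside 1.62 for DLD3. The isocitrate lyase gene ICL1 of the glyoxylate cycle rose by 0.47 ± 0.07 (adjusted p = 0.00669), beside 0.01 for ICL2. ICL1 did not pass when the tested genes were quantile normalized again (adjusted p = 0.0616) or without honokiol 1 (adjusted p = 0.0699). None of these probe sets is marked as able to bind several transcripts.

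**Figure D5:**
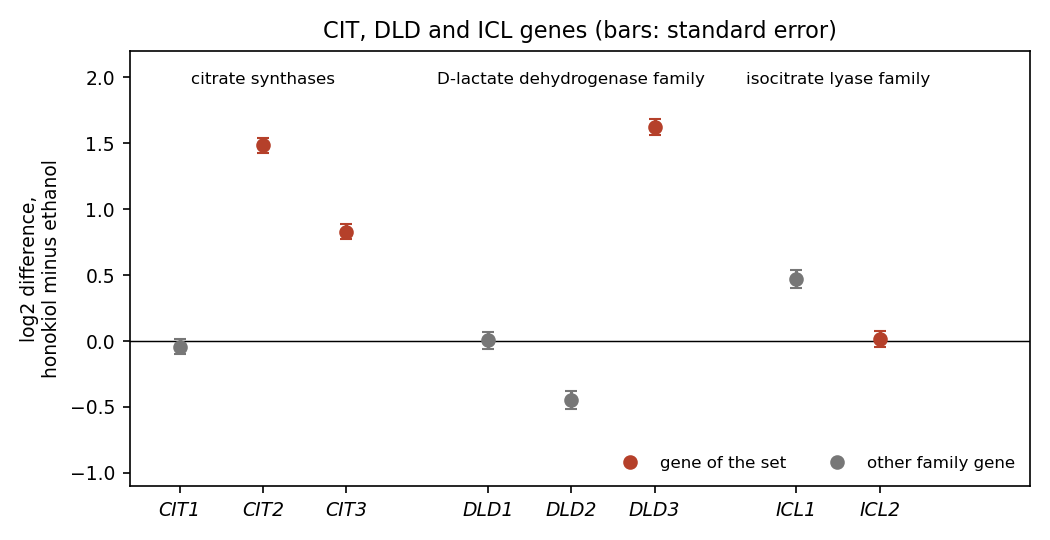
Difference in log2 intensity, honokiol minus ethanol (vertical axis), for the citrate synthase, D-lactate dehydrogenase and isocitrate lyase families, with bars for the standard error; red points are genes of the set and grey points their relatives. Within each family the genes differ in size of change: CIT1 is at -0.04, CIT2 at 1.48 and CIT3 at 0.83.

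Of 10 tested paralogs and glyoxylate partners, 1 rose, 4 fell and 5 did not pass, with a median difference of -0.05. The shares over all tested genes were 48.9% in either direction, 23.9% as higher and 25.0% as lower. Besides ICL1 and DLD2, the malate dehydrogenase genes fell: the mitochondrial MDH1 by a log2 difference of -0.53, the cytosolic MDH2 by -0.54 and the peroxisomal MDH3 by -0.25 (adjusted p = 0.0035, 0.00483 and 0.0219). The malate synthase genes MLS1 and DAL7 differed by 0.14 and -0.05 (adjusted p = 0.361 and 0.503), so of the peroxisomal and cytosolic glyoxylate genes listed only ICL1 passed as higher. Without honokiol 1, 1 of the 10 genes passed (MDH1), and without honokiol 2, 2 did (MDH1 and ICL1).

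The TCA genes known to depend on Rtg proteins when respiration is impaired lead from oxaloacetate to 2-oxoglutarate. Of 4 such genes 2 rose, 0 fell and 2 did not pass, with a median difference of 0.34. Among all tested genes 48.9% passed, 23.9% as higher. IDH1 and IDH2 encode the subunits of NAD-dependent isocitrate dehydrogenase. IDH1 had 13.01 and 13.07 with honokiol and 12.08 and 11.91 with ethanol, a rise of 1.05 ± 0.08 (SE; adjusted p = 0.00189). IDH2 had 13.33 and 13.40 with honokiol and 12.92 and 12.89 with ethanol, a rise of 0.46 ± 0.06 (SE; adjusted p = 0.00561). The aconitase gene ACO1 differed by 0.21 ± 0.07 (adjusted p = 0.0623) and CIT1 by -0.04. Without honokiol 1 or without honokiol 2, 1 of the 4 genes passed (IDH1).

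Of 7 other regulators of the pathway, 1 rose, 1 fell and 5 did not pass, with a median difference of -0.03. Among all tested genes 48.9% passed. LST8, a TOR complex subunit that restrains retrograde signalling, rose by 0.50 ± 0.06 (adjusted p = 0.0039). GRR1, whose F-box product marks free Mks1 for degradation, fell by 0.40 (SE 0.12, adjusted p = 0.0433), and did not pass with the 5′ to 3′ covariate (adjusted p = 0.233). The 14-3-3 genes BMH1 and BMH2, whose products bind Mks1, differed by -0.03 and 0.05 (adjusted p = 0.633 and 0.622). The TORC1 genes TOR1, KOG1 and TCO89 differed by -0.23, 0.00 and -0.16 (adjusted p = 0.0608, 0.953 and 0.279). No gene of this list passed without honokiol 1 or without honokiol 2, and 4 did without ethanol 1 (LST8, GRR1, TOR1 and TCO89).

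Propionyl-CoA, the substrate of the methylcitrate cycle, can come from 2-oxobutyrate, itself made from threonine, from odd-chain fatty acids, or from propionate activated by acetyl-CoA synthetases. Of 7 genes listed for this supply, 1 rose, 1 fell and 5 did not pass, with a median difference of -0.02. Among all tested genes 48.9% passed. CHA1, which encodes the catabolic serine and threonine deaminase, had 12.46 and 12.46 with honokiol and 11.46 and 11.35 with ethanol, a rise of 1.05 ± 0.07 (SE; adjusted p = 0.00134). The biosynthetic threonine deaminase gene ILV1 differed by -0.02 ± 0.06 (adjusted p = 0.802). POT1, the thiolase gene of beta-oxidation, fell by 1.19 (SE 0.10, adjusted p = 0.00223), while POX1 and FOX2 of the same pathway differed by -0.08 and 0.00 (adjusted p = 0.533 and 0.963). POX1 was dim, with means of 5.62 with honokiol and 5.70 with ethanol. POT1 had means of 5.91 with honokiol and 7.10 with ethanol. On both honokiol arrays it lay below the 5th percentile of tested genes (6.65 and 6.57). When the tested genes were quantile normalized again, POX1 differed by -0.53 (adjusted p = 0.0457) and POT1 by -1.55. CHA1 and POT1 passed in all 12 alternative fits. ACS1 and ACS2 differed by 0.24 and -0.15 (adjusted p = 0.0655 and 0.210).

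The 2-oxoglutarate that the pathway supplies is used to make glutamate and lysine. Of 5 glutamate and glutamine genes, 0 rose, 2 fell and 3 did not pass, with a median difference of -0.10. Among all tested genes 48.9% passed, a share to be read beside the lysine counts below as well. The glutamate dehydrogenase gene GDH1 fell by 0.45 and the glutamine synthetase gene GLN1 fell by 0.39 (adjusted p = 0.00491 and 0.0122), and 0 of the 5 passed without honokiol 1 or without honokiol 2. Of 8 lysine genes, 2 rose, 2 fell and 4 did not pass, with a median difference of 0.04. LYS20, which encodes the homocitrate synthase that consumes 2-oxoglutarate, had 11.72 and 11.70 with honokiol and 9.76 and 9.82 with ethanol. Its rise was 1.92 ± 0.06 (SE; adjusted p = 0.000491), while its isozyme gene LYS21 differed by 0.28 ± 0.09 (adjusted p = 0.0547, between 0.0128 and 0.0411 in the 6 alternative fits in which it passed). LYS4, the homoaconitase gene of the next steps, rose by 0.64 ± 0.06 (adjusted p = 0.00315), and ARO8 and LYS9 fell by 0.37 and 0.34 (adjusted p = 0.00828 and 0.0321). LYS9 did not pass with the 5′ to 3′ covariate (adjusted p = 0.168) or with all probe sets except controls as features (adjusted p = 0.0864). Without honokiol 1 or without honokiol 2, LYS20 and LYS4 passed and ARO8 and LYS9 did not.

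Over the 4 arrays, each gene centred on its own mean, the profile nearest to that of PDH1 outside the set was that of CIS1 (Euclidean distance 0.23, difference 2.94 ± 0.07), followed by the uncharacterised YGR079W (0.46, difference 2.68 ± 0.13) and LSO1 (0.47, difference 2.63 ± 0.12), whose ethanol arrays lay below background. The profiles nearest to CIT2 were those of GRE2, a methylglyoxal reductase gene (0.04, difference 1.46 ± 0.06), VHR1, a regulator of biotin uptake genes (0.05, difference 1.50 ± 0.06), and FIT3, a cell wall mannoprotein gene of siderophore iron retention (0.08, difference 1.50 ± 0.07). With 4 arrays, nearness mainly reflects a like difference between the groups.

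Across tested genes, the correlation was 0.998 between the honokiol arrays, 0.995 between the ethanol arrays and at most 0.970 between groups. The gap between replicates, taken over genes, had an SD of 0.12 in the honokiol pair and 0.21 in the ethanol pair.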

How the data were processed

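The authors deposited an RMA intensity for every probe set on each array; the submitters' processing notes name RMA, a method that corrects background, normalizes by quantiles and summarises probes. The version of RMA and the genome build are not given in the sources used here. These deposited intensities are on a linear scale (highest 21742 to 22549), so log2 was taken with no pseudocount. Gene names came from the platform annotation joined to the R64 gene table, which gave names, chromosomes and gene order only. Of 10928 probe sets, 5498 named an S. cerevisiae gene, giving 5449 tested genes, each through its brightest probe set. The background level was the 95th percentile of the means of 1746 probe sets naming genes outside the table, as the array also carries probes for fission yeast.

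The comparison of honokiol with ethanol used limma 3.58.1 (lmFit, then eBayes; R 4.3.3). Its two-sided p-values were adjusted by Benjamini-Hochberg across all 5449 genes, with a threshold of 0.05. The fit has 2 residual and 2.76 prior degrees of freedom, and was tested on simulated data. The number of arrays limits the precision. Members and lists were chosen with earlier results of these data known. The genes named were the 9 members, the listed genes past the threshold with others to account for each list, and the 3 nearest profiles of PDH1 and of CIT2. The HAT1 value and the genes of like brightness were added after the data were seen.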

Additional observations from a re-analysis of the deposited data

How the results depend on the processing

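The 12 alternative fits reuse the same 4 arrays, so for the 9 genes they describe how far the differences move. CIT2 ran from 1.46 to 1.53, DLD3 from 1.59 to 1.68, CIT3 from 0.45 to 0.86 and PDH1 from 2.85 to 3.22. RTG2 ran from -0.46 to -0.14 and MKS1 from -0.66 to -0.23. Adding a 2-fold minimum to the threshold left 3 of the 9 genes and 258 of all genes (206 higher, 52 lower). Over all genes 2663 passed, against 1759 of 10715 with all probe sets except controls as features. Leaving out 1 array gave 705 to 3190, the lowest being 705 without honokiol 2 and 708 without honokiol 1, when the spread comes from the ethanol pair alone. The ranges on leaving out 1 array were 0 to 4 genes for the other regulators, 1 to 3 for the Rtg-dependent TCA genes, 1 to 6 for the paralogs and glyoxylate partners, 0 to 2 for glutamate and glutamine, 2 to 5 for lysine and 0 to 1 for the chromosome neighbours. Of the other regulators, 1 passed with all probe sets except controls as features, and 1 with the 5′ to 3′ covariate. The cause of these shifts was not tested.

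The replicate numbers of the groups share only a number, as the labels name no shared culture or day. Deviations of same-numbered arrays correlated at 0.33 over tested genes. With the replicate block 2809 genes passed (1414 higher, 1395 lower). CIT3 was dim, 1.32 above background in the ethanol group. Its SE was 0.06 in the main fit and 0.18 with an intensity trend and a robust prior. Whether its low signal limits the precision was not tested.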

Other observations

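Dim S. cerevisiae genes differed between arrays although the median did not. The median over tested genes was 9.57 and 9.59 with honokiol, against 9.57 and 9.59 with ethanol (log2 intensity). Their 5th percentile was 6.65 and 6.57 with honokiol and 6.49 and 6.17 with ethanol, lowest on the second ethanol array. The 485 tested genes within 0.5 of the mean of RTG1 had a median difference of 0.19, beside 0.40 for RTG1.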
